A study of Mus musculus with 8 samples.

Results

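The class I histone deacetylase genes Hdac1, Hdac2, Hdac3 and Hdac8 and the NCoR complex genes Ncor1, Tbl1x, Tbl1xr1 and Gps2 were followed in mouse brain RNA-seq. These 8 genes were chosen by name, matched on the gene symbol, out of 54532 genes in the first table of counts and 28229 in the second. All 8 were found in both tables and all 8 passed the filter on low counts. The first table compared male C57BL/6 mice with photothrombotic stroke plus restraint stress (PTS + RS group, 2 libraries) with mice given restraint stress alone (RS group, 2 libraries), all labelled cortex. In the second table every mouse had PTS + RS. RGFP109 is named in the labels as an HDAC3 inhibitor, and the paper describes it as selective for HDAC1 as well as HDAC3. It was given under the skin at 60 mg/kg once a day for 2 weeks (HDAC3 inhibitor group, 2 libraries). It was compared with the group labelled NaCl (NaCl group, 2 libraries), and the paper calls its control vehicle. The paper's solvent for RGFP109 was DMSO with hydroxypropyl-β-cyclodextrin, so whether the NaCl group matched it is not known. Replicate 1 of both of these groups was labelled cortex and replicate 2 amygdala, so each treatment had 1 library of each tissue. All tissue was from Day 21. No group was without restraint stress and none received the inhibitor without stroke. The age of the mice used for RNA-seq, and whether a library held 1 mouse or a pool, are not given in the sources used here, so the p-values measure the spread between libraries, which may be technical.

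Class I deacetylases remove acetyl groups from lysines of histones and other proteins, and most of them work only inside large complexes. HDAC1 and HDAC2 are close relatives that form the shared catalytic core of the NuRD, Sin3, CoREST and MiDAC complexes. HDAC3 is the catalytic subunit of the NCoR corepressor, whose scaffold protein switches on its activity and brings it to unliganded nuclear receptors and to other DNA-bound repressors. TBL1X and TBLR1, the product of Tbl1xr1, are related WD40-repeat proteins of the same complex, and GPS2 is a small subunit that binds both the scaffold and TBL1. HDAC8 belongs to class I by sequence but is active alone, with the cohesin subunit SMC3 as a known substrate. The question put to the 8 genes here is whether their RNA differed with stroke, with the inhibitor and between the labelled tissues.

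On GRCm38, Hdac1 (ENSMUSG00000028800) lies at chr4:129516104-129542713, Hdac2 (ENSMUSG00000019777) at chr10:36974544-37001889 and Hdac8 (ENSMUSG00000067567) at chrX:102284639-102505359, and Hdac3 has the identifier ENSMUSG00000024454. Ncor1 (ENSMUSG00000018501) lies at chr11:62316426-62458541, Gps2 (ENSMUSG00000023170) at chr11:69913888-69916591, Tbl1x (ENSMUSG00000025246) at chrX:77511013-77662983 and Tbl1xr1 (ENSMUSG00000027630) at chr3:22076652-22216594. All are protein-coding. Counts of Hdac1 are uncertain to the extent of its processed copies, since 24.9% of the 100-base windows in its transcripts also occur in Gm10093, Gm4864 or AC125456.1. Gm10093 itself was listed with 25 to 41 counts and Gm4864 with 0 or 1, beside 472 to 792 counts for Hdac1. None of the other 7 genes shared such a window with another gene. Ncor1 overlaps the oppositely transcribed Ttc19 by 12026 bases, and because the strand setting of the counting is not given, reads from the overlap cannot be told apart. Ttc19 had 1363 to 2508 counts and Ncor1 4279 to 6648.

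Upstream sequence was read from the RefSeq promoter table (GRCm38.p6), which held 6 of the 8 genes. Shown here are the genes with libraries apart between groups in the comparison with stroke or with the inhibitor and at least 100 bases of table sequence before their listed start. Lower case letters run 5′ to 3′ on the transcribed strand up to the base before the listed gene start, and capitals mark the one motif found in each.
Hdac2 (chr10:36974294-36974543): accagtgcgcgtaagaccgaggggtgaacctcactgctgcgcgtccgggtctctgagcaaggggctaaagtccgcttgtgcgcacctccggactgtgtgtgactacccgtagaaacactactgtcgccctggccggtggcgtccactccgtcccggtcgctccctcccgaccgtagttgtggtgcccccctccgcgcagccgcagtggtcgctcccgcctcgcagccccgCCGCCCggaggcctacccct
Tbl1xr1 (chr3:22076402-22076651): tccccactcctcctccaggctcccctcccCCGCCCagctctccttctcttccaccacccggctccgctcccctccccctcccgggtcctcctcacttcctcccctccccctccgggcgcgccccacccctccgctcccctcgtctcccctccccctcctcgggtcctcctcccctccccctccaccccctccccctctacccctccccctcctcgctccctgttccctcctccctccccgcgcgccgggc
Gps2 (chr11:69913770-69913887): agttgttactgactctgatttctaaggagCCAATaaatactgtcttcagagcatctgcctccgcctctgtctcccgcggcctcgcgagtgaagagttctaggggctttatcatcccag
The capitals are a GC box, GGGCGG, read on the other strand in Hdac2 and Tbl1xr1, and a CCAAT box in Gps2. Over the windows of 250 bases of all 32851 promoters, searched on both strands, 32.7% held GGGCGG and 33.8% held CCAAT, so these matches are common. The other motifs searched were CCGGAAG (6.91% of promoters), the cyclic AMP response element TGACGTCA (1.55%) and TATAAA (12.4%). In the whole windows GGGCGG was also found for Ncor1 and Tbl1x, and CCAAT for Hdac8. CCGGAAG was found there for Ncor1 and Gps2, TATAAA for Hdac8 and TGACGTCA for none of the 6 genes. GC content of the window was 68.8% for Hdac2 and 76% for Tbl1xr1, against 55.2% for the window of Gps2 and a median of 52.4% over all promoters. Tbl1x, the relative of Tbl1xr1, had the highest GC content of the 6 genes, at 77.2%.

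Total counts ranged from 15902013 to 21712033 per library, and replicates of each group differed by more than sampling noise. Markers of other cells and regions set some libraries apart. The 12 microglia markers summed to 1695 and 1451 CPM (counts scaled to a common library size by TMM) in the PTS + RS libraries against 372 and 335 in the RS libraries, and all 12 were called higher. In the second table, where every mouse had stroke, they summed to 437 and 346 in the cortex-labelled libraries of the HDAC3 inhibitor and NaCl groups and to 658 and 758 in the amygdala-labelled ones. Replicate 1 of the NaCl group, labelled cortex, stood apart. Its olfactory bulb markers summed to 1403 CPM against 23.2 to 48.8 in the other 7 libraries, with Cdhr1 at 533.9 and Calb2 at 356 CPM. In the same library Neurod6, a gene of cortical excitatory neurons, was at 11.7 CPM, against 110 to 176 CPM in the other 5 cortex-labelled libraries. The whole cortex list did not set it apart, at 693 CPM against 552 to 803 in those 5, and Mef2c of that list was higher in it, at 405.8 against 127 to 266. In the amygdala-labelled libraries of the HDAC3 inhibitor and NaCl groups the cortex list summed to 1335 and 1133. The amygdala-labelled libraries had striatum markers at 1174 and 1301 CPM, against 153 to 207 in the 6 cortex-labelled ones, while the amygdala list summed to 368 and 379 against 303 to 331 in the 5 cortex-labelled libraries other than NaCl replicate 1, which had 835. Of the 9 amygdala markers tested, 5 were higher and 4 lower in the amygdala-labelled libraries, and none was called. Choroid plexus markers summed to 1655 and 51.1 CPM in the PTS + RS libraries and to 1866 and 3873 in the RS libraries, and all 10 were lower with PTS + RS without overlap, though none was called. In the second table they summed to 1529 in the cortex-labelled inhibitor library and to 16.3 to 46.7 in the other 3. Values of the second table that changed with NaCl replicate 1 are also given without it, for the list genes by a repeat chosen after seeing the data. Leaving it out left the amygdala-labelled library alone in the NaCl group and the inhibitor library alone on the cortex-labelled side. Those fits had no term for the other factor, so treatment and tissue are mixed in them. In whole tissue, fewer cells of a type and less RNA per cell cannot be told apart.

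**Figure D1:**
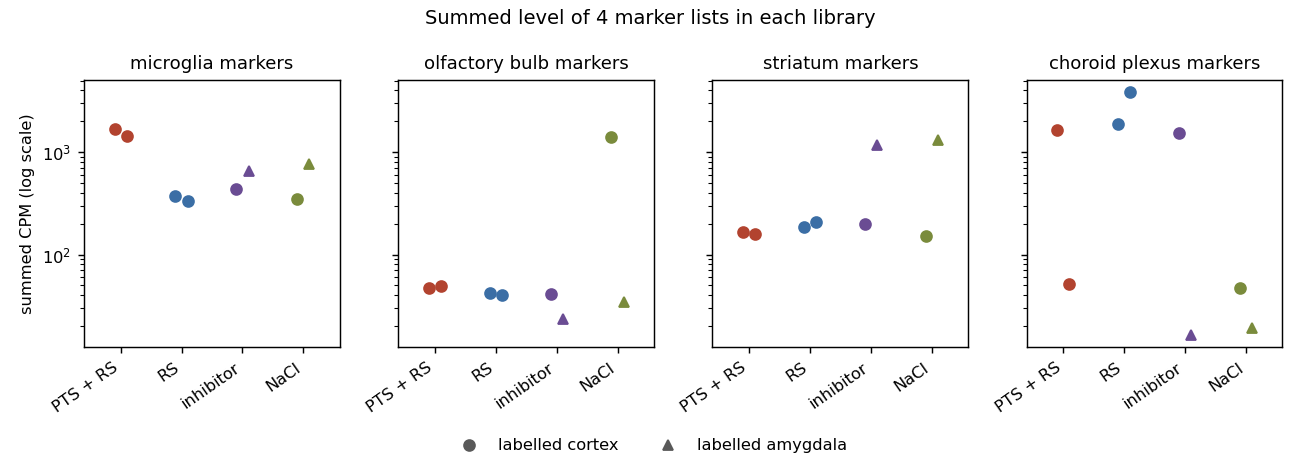
Summed CPM of 4 marker lists (log scale) in each library, by group, with circles for libraries labelled cortex and triangles for those labelled amygdala. The microglia list is highest in both PTS + RS libraries (1695 and 1451), the olfactory bulb list in NaCl replicate 1 (1403), and the striatum list in both amygdala-labelled libraries (1174 and 1301).

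Ranked by median CPM per kilobase of listed gene length over the 8 libraries, the scaffold gene Ncor1 came first at 23.7, followed by Hdac2 at 19.1 and Hdac3 at 19.0. Gps2 (13.9), Hdac1 (11.3), Tbl1xr1 (10.02) and Tbl1x (9.15) lay in the middle, and Hdac8 was lowest at 2.39. Tbl1x and Hdac8 were the only neighbours in this order whose ranges over the libraries did not overlap. Ncor1 was above Hdac2 within each of the 8 libraries and Gps2 above Hdac1 likewise, whereas Hdac2 was above Hdac3 in 6 and Tbl1xr1 above Tbl1x in 5. The tables were scaled separately, so levels across them are a description.

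The spread of log2 CPM over all 8 libraries, with the libraries scaled together, divided the genes into 2 sets of 4. Ncor1 (SD 0.094), Hdac3 (0.095), Hdac2 (0.10) and Hdac8 (0.10) varied little, and between 6.49% and 8.70% of 16912 genes had a smaller SD. Tbl1xr1 (0.23), Gps2 (0.25), Tbl1x (0.29) and Hdac1 (0.31) lay near the median SD of all genes, 0.25. The genes whose centred levels lay nearest to those of Hdac3, by root mean square difference of log2 CPM, were Ppm1g (0.046), Kctd2 (0.049) and Dtnb (0.049). Among the other members the nearest to Hdac3 was Hdac2 (0.14) and the farthest Tbl1x (0.32). Ncor1 and Hdac2 were each other's nearest member (0.12). The 8 libraries share tables and treatments, so these distances are descriptions.

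**Figure D2:**
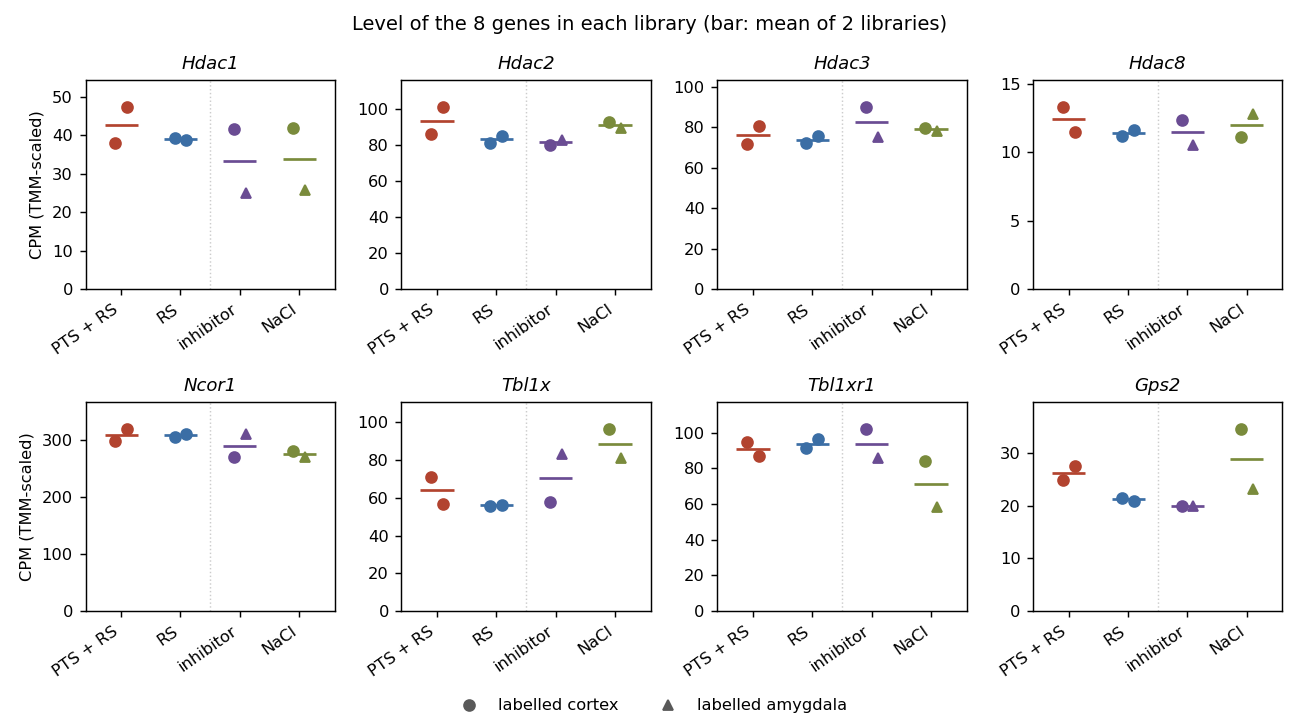
CPM of each of the 8 genes (y axis from 0) in each library by group, with circles for libraries labelled cortex, triangles for those labelled amygdala and a bar at the mean of the 2 libraries. The dotted line parts the tables, which were scaled separately. Hdac1 is near 25 CPM in both amygdala-labelled libraries and 38.1 to 47.4 in the others, and Gps2 is lower in both RS libraries than in both PTS + RS libraries.

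Stroke was examined by comparing the PTS + RS group with the RS group. None of the 8 genes passed the test, and Hdac3 RNA was nearly level. Over all 17581 genes tested, 3.55% were called at an adjusted p under 0.05 (edgeR), 2.96% higher and 0.586% lower. Of the 8 genes, 7 were higher and 1 lower, with a median log2 fold change of 0.13 against -0.0015 over all genes tested. Over all genes tested, 49.7% were higher. The libraries of 3 of the 8 lay apart, all with PTS + RS higher. Over all genes 50.2% lay apart, 25.7% with PTS + RS higher and 24.5% with it lower. In 1 edgeR fit over all 8 libraries none of the 8 was called either, where 3.1% of all genes were.

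Hdac3, the target that the labels name for the inhibitor, had 71.4 and 80.6 CPM in the PTS + RS libraries. It had 72.1 and 75.3 in the RS libraries. The 2 RS values lay between the PTS + RS values. The group means were 76.0 ± 6.52 and 73.7 ± 2.31 CPM (SD, n = 2), a log2 fold change of 0.044 (SE 0.089, edgeR adjusted p = 0.847), and the 95% interval ran from 0.892-fold to 1.19-fold. Its scaffold Ncor1 had 299.9 and 319.9 CPM against 306.4 and 311.6, again with the RS values inside, and a log2 fold change of 0.0040 (95% interval -0.18 to 0.19, edgeR adjusted p = 0.987). The level of Hdac3 per kilobase was 0.758 and 0.802 of that of Ncor1 in the PTS + RS libraries and 0.748 and 0.769 in the RS libraries. Over the same libraries the summed microglia markers stood 4.45-fold apart between the group means. The astrocyte sum was 1.54-fold (11 of 12 markers higher, 5 called), the oligodendrocyte sum 1.22-fold (11 of 12 higher, 1 called), the endothelial sum 1.14-fold (12 of 12 higher, none called) and the choroid plexus sum 0.297-fold. The neuron sum was 0.942-fold (9 of 12 lower, none called) and the striatum sum 0.822-fold (8 of 10 lower, 1 called). Their part in the members' values was not tested.

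Hdac2 had 85.9 and 101 CPM in the PTS + RS libraries and 80.8 and 85.1 in the RS libraries, so the groups just did not overlap (log2 fold change 0.17, SE 0.097, edgeR adjusted p = 0.411). Hdac1 had 38.1 and 47.4 CPM against 39.2 and 38.9, and the groups overlapped (0.13, edgeR adjusted p = 0.644). Hdac8 had 13.3 and 11.5 CPM against 11.2 and 11.6 (0.12, SE 0.156, edgeR adjusted p = 0.746). For all 3 of these catalytic genes the higher mean in the PTS + RS group came with a wider spread there than in the RS group, where the SD was 3.03 CPM for Hdac2, 0.258 for Hdac1 and 0.289 for Hdac8 against 10.6, 6.60 and 1.29 CPM.

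Gps2, the small NCoR subunit, showed the largest difference of the 8 with stroke. It had 24.8 and 27.5 CPM in the PTS + RS libraries and 21.4 and 20.9 in the RS libraries, with no overlap. The log2 fold change was 0.30 (SE 0.115, 95% interval 0.033 to 0.58), but it did not pass the test (edgeR adjusted p = 0.230), and 29.8% of all genes tested had a difference at least as large. It was the only one of the 8 under 0.05 before adjustment, a limit that 17.9% of all genes met. Tbl1x had 71.3 and 56.6 CPM against 55.8 and 56.5, where the lower PTS + RS library lay just above both RS libraries (log2 fold change 0.19, SE 0.119, edgeR adjusted p = 0.463). Its relative Tbl1xr1 had 94.9 and 86.9 CPM against 91.5 and 96.4 and was the only member with a lower mean in the PTS + RS group (-0.048, SE 0.082, edgeR adjusted p = 0.816). The level of Tbl1x per kilobase relative to Tbl1xr1 was accordingly 0.949 and 0.822 in the PTS + RS libraries and 0.771 and 0.739 in the RS libraries.

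These values turn on single libraries. Without PTS + RS replicate 1 Hdac2 was called higher (0.28, edgeR adjusted p = 0.0367), as were 985 genes in all, with 718 lower. Without PTS + RS replicate 2 Tbl1x was called higher (0.35, edgeR adjusted p = 0.0136), as were 1506 genes in all, with 1360 lower, while Hdac1, Hdac3 and Ncor1 turned slightly negative and Tbl1xr1 slightly positive.

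**Figure D3:**
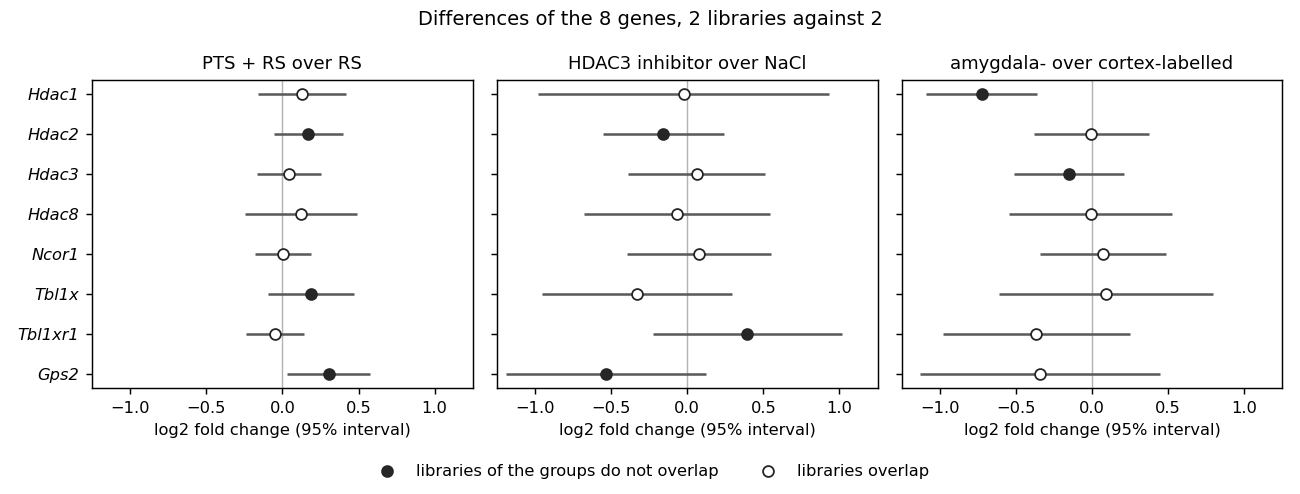
Log2 fold change of the 8 genes (x axis) with 95% intervals from edgeR in the 3 comparisons, each of 2 libraries against 2. Filled points mark genes with no overlap of libraries between the groups. The intervals are narrowest for PTS + RS over RS, and the intervals that leave out 0 are those of Gps2 there and of Hdac1 in amygdala- over cortex-labelled libraries.

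The inhibitor was examined by comparing the HDAC3 inhibitor group with the NaCl group. None of the 8 genes was called, and neither was any of the 17565 genes tested (0%, edgeR), of which 206 (1.17%), and none of the 8, were under 0.05 before adjustment. Of the 8 genes, 3 were higher and 5 lower with the inhibitor, with a median log2 fold change of -0.044 against -0.016 over all genes, of which 47.4% were higher. Without NaCl replicate 1, in a fit that mixed treatment with tissue, 4 were higher and 4 lower. The largest differences were in NCoR subunits, with Tbl1xr1 higher and Gps2 and Tbl1x lower. The libraries of 1 gene lay apart with the inhibitor higher, where 12.8% of all genes did so, and those of 2 genes with it lower, where 13.8% did, against 26.6% of all genes in either direction. Each group mixed the labelled tissues, and the common biological coefficient of variation was 32.1%, against 26.55% with the same libraries regrouped by labelled tissue and 11.4% in the comparison with stroke.

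Hdac3, the target that the labels name, had 89.9 CPM with the inhibitor and 79.7 with NaCl in the cortex-labelled libraries. In the amygdala-labelled ones it had 74.8 and 78.0. The groups overlapped, and the log2 fold change of 0.063 (SE 0.173, edgeR adjusted p = 0.9997) had a 95% interval from 0.765-fold to 1.43-fold. Hdac1 had 41.7 and 42.0 CPM in the cortex-labelled libraries and 25.0 and 25.7 in the amygdala-labelled ones, and so was all but equal within each tissue (log2 ratios -0.010 and -0.037). Hdac2 had 80.1 and 82.9 CPM with the inhibitor and 92.4 and 89.2 with NaCl, lower in both tissues and with no overlap (log2 fold change -0.16, 95% interval -0.55 to 0.24). Hdac8 had 12.4 and 10.6 CPM with the inhibitor and 11.1 and 12.8 with NaCl, in opposite order in the 2 tissues.

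Tbl1xr1 had 102 and 85.9 CPM with the inhibitor against 84.2 and 58.6 with NaCl, higher in both labelled tissues (log2 ratios 0.28 in cortex and 0.55 in amygdala), and the groups did not overlap. Its log2 fold change was 0.40 (SE 0.239, edgeR adjusted p = 0.9997). Gps2 had 19.98 and 19.86 CPM with the inhibitor against 34.5 and 23.2 with NaCl, lower in both tissues (-0.79 and -0.23) and with no overlap, at a log2 fold change of -0.53 (SE 0.253, edgeR adjusted p = 0.9997). The highest Gps2 value of the 8 libraries was that of NaCl replicate 1, the library with high olfactory bulb markers. Without it the inhibitor libraries of both tissues stood against the amygdala-labelled NaCl library alone, so that fit mixed treatment with tissue. The log2 fold change there was -0.23 for Gps2, 0.67 for Tbl1xr1, -0.14 for Hdac2 and 0.37 for Hdac1. Within a tissue the log2 ratios of Hdac1 were -0.010 and -0.037. In an edgeR fit over all 8 libraries, whose spread comes from the PTS + RS and RS pairs alone and assumes that the inhibitor and NaCl libraries vary like those, Tbl1xr1 (0.41, adjusted p = 0.0302) and Gps2 (-0.51, adjusted p = 0.0454) were both called, as were 7.01% of all genes.

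Tbl1x had 57.8 CPM with the inhibitor and 96.4 with NaCl in the cortex-labelled libraries, but 83.3 and 81.2 in the amygdala-labelled ones. The log2 ratio was thus -0.74 in one tissue and 0.037 in the other, and the groups overlapped (log2 fold change -0.33, SE 0.240, edgeR adjusted p = 0.9997). The difference between the tissues, tested as an interaction in the fit over all 8 libraries, was not called (-0.78, edgeR adjusted p = 0.0970, against 6.53% of all genes called). The 96.4 CPM came from NaCl replicate 1. In the fit without that library, which mixed treatment with tissue, the log2 fold change was -0.21. Per kilobase, Tbl1x was 0.715 and 1.22 of Tbl1xr1 with the inhibitor and 1.45 and 1.75 with NaCl, so that the ratio of the relatives was lower with the inhibitor in both tissues. The 1.45 was that of NaCl replicate 1, and the cortex-labelled PTS + RS and RS libraries had 0.739 to 0.949. Ncor1 had 271.4 and 310.7 CPM with the inhibitor and 281.3 and 270.3 with NaCl, in opposite order in the tissues (log2 fold change 0.078, 95% interval -0.40 to 0.55). Gps2 per kilobase was 0.588 and 0.511 of Ncor1 with the inhibitor and 0.979 and 0.686 with NaCl. The 0.979 was again that of NaCl replicate 1, against 0.537 to 0.686 in the PTS + RS and RS libraries.

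**Figure D4:**
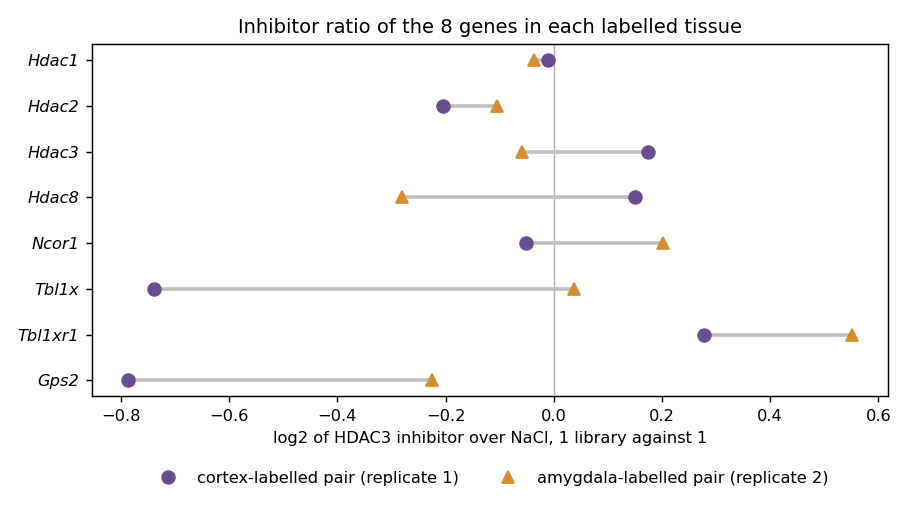
Log2 of the HDAC3 inhibitor library over the NaCl library (x axis) for the 8 genes in the cortex-labelled pair (circles) and the amygdala-labelled pair (triangles), 1 library against 1 and so with no error. Tbl1xr1 is above 0 and Gps2 and Hdac2 are below 0 in both pairs, and Tbl1x differs most between the pairs (-0.74 and 0.037).

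The tissue labels were examined in the same 4 libraries, regrouped, so that this comparison is not independent of the one with the inhibitor. Hdac1 stood out, at 25.0 and 25.7 CPM in the amygdala-labelled libraries and 41.7 and 42.0 in the cortex-labelled ones, with no overlap and a log2 difference of -0.74 in the inhibitor pair and -0.71 in the NaCl pair. Its log2 fold change was -0.73 (SE 0.139, 95% interval -1.09 to -0.36), or 0.605-fold. It did not pass the test over all genes (edgeR adjusted p = 0.288), where none of 17565 was called (0%) and 11.2% were under 0.05 before adjustment. Without NaCl replicate 1, which left the inhibitor library alone on the cortex-labelled side, it was at -0.71. Without HDAC3 inhibitor replicate 1, which left NaCl replicate 1 alone on that side, it was at -0.73. Hdac1 was called in both of these fits, which mixed tissue with treatment and took their spread from the amygdala-labelled pair alone. It was called in the fit over all 8 libraries (-0.71, edgeR adjusted p = 0.0124), where 15.2% of genes were. It was not called with DESeq2 (DESeq2 adjusted p = 0.118), with limma-voom (limma-voom adjusted p = 0.284) or with a treatment term (edgeR adjusted p = 0.446). The 4 libraries of the first table, all labelled cortex, had 38.1 to 47.4 CPM. In the same comparison 10 of 10 striatum markers, 11 of 12 microglia markers, 11 of 12 oligodendrocyte markers and 8 of 10 cerebral cortex markers were higher in the amygdala-labelled libraries, none of them called. The median log2 fold change was 2.94 for the striatum list, 0.79 for microglia, 0.51 for oligodendrocytes and 0.61 for cortex. Of the neuron markers 9 of 12 were higher (median 0.14). Mostly lower were endothelial (8 of 12, median -0.28), astrocyte (7 of 12, -0.080), choroid plexus (9 of 9, -3.52) and olfactory bulb markers (6 of 6, -5.05), none called. Of these 4 libraries, choroid plexus markers were high in the cortex-labelled inhibitor library alone and olfactory bulb markers in NaCl replicate 1 alone. The part of these cells and regions in the Hdac1 value was not tested.

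Of the 8 genes, 2 were higher and 6 lower in the amygdala-labelled libraries, against 46.7% of all genes higher (4 and 4 without NaCl replicate 1), and those of 2 lay apart, both lower, where 21.6% of all genes lay apart with higher values and 22.4% with lower. Of the other deacetylases, Hdac3 was slightly lower in the amygdala-labelled libraries with no overlap (74.8 and 78.0 against 89.9 and 79.7 CPM, log2 fold change -0.15, edgeR adjusted p = 0.741). Hdac2 (-0.0039) and Hdac8 (-0.0079) had equal means to within 1%. Tbl1xr1 was lower in both pairs, at a log2 fold change of -0.37 (edgeR adjusted p = 0.630), and was called in the fit over all 8 libraries (-0.37, edgeR adjusted p = 0.0261). Without NaCl replicate 1 it was at -0.48 and Hdac3 at -0.22, neither of them called. Tbl1x and Gps2 depended on NaCl replicate 1. Without it Tbl1x was at 0.52 and was called, against 0.093 and no call with all libraries, and Gps2 went from -0.34 to 0.12. In the fit without that library the cortex-labelled side was the inhibitor library alone, so tissue was mixed with treatment.

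The 4 class I genes made up a summed level of 46.5 to 58.7 CPM per kilobase, and the share of Hdac1 was lower in both amygdala-labelled libraries than in any other. It was 21.8% to 23.4% in the 6 cortex-labelled libraries and 15.6% and 15.1% in the amygdala-labelled libraries of the HDAC3 inhibitor and NaCl groups. Hdac2 held 32.6% to 40.3%, Hdac3 34.1% to 40.7% and Hdac8 4.04% to 5.42%. The largest share was that of Hdac2 in 6 libraries and that of Hdac3 in 2. The ratio of Hdac1 to Hdac2 per kilobase was 0.392 and 0.374 in the amygdala-labelled libraries and 0.575 to 0.677 in the others. The FPKM values that the authors deposited were calculated from the same counts and gene lengths, so they give the same shares by construction.

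**Figure D5:**
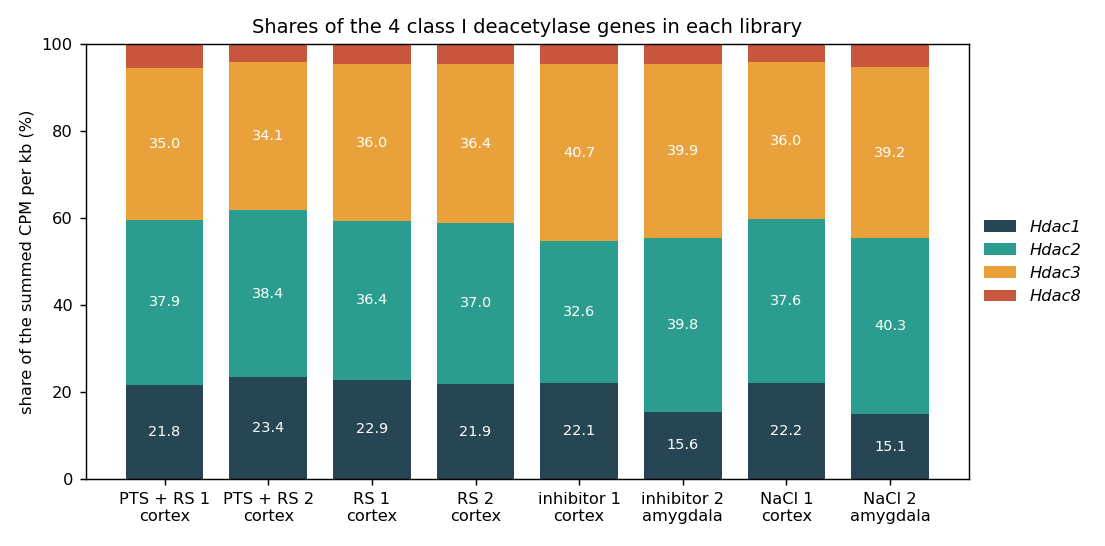
Share of Hdac1, Hdac2, Hdac3 and Hdac8 in their summed CPM per kilobase (y axis, %) in each of the 8 libraries, with the tissue label under each bar. The Hdac1 share is 15.6% and 15.1% in the amygdala-labelled libraries and at least 21.8% in the others.

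The genes that work beside the 8 were followed in 7 lists of 65 genes, all of which were tested. With stroke, 32 were higher and 33 lower, and 2 (3.08%, against 3.55% of all genes) were called, both NuRD subunits that fell. The libraries of 56.9% lay apart, against 50.2% of all genes. Cdk2ap1, a small NuRD subunit, averaged 31.1 CPM with PTS + RS and 44.0 with RS alone (log2 fold change -0.50, SE 0.094, edgeR adjusted p = 0.0385). Chd5, a chromodomain ATPase of NuRD that is found mainly in neurons, was at 269 and 348 CPM (-0.37, SE 0.073, edgeR adjusted p = 0.0437). In the same libraries 9 of 12 neuron markers were lower (median -0.15), and their part in the Chd5 value was not tested. Both calls were lost without RS replicate 1 (edgeR adjusted p = 0.242 and 0.439) or RS replicate 2 (0.372 and 0.471), at log2 fold changes from -0.53 to -0.47 for Cdk2ap1 and from -0.39 to -0.36 for Chd5. The remaining 11 NuRD subunits did not pass. The medians of the 7 lists lay between -0.12 and 0.11.

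In the other lists no gene passed with stroke, and the highest and lowest values are given here as values only. Among the NCoR partners Coro2a was at 0.11 and Zbtb33, which encodes the methyl-DNA-binding repressor Kaiso, at -0.23. Among Sin3 subunits Sap30 was at 0.29 and Sap30l at -0.27, and among CoREST subunits Hmg20b was at 0.17 and Rcor3 at -0.16. Of the MIER and MiDAC scaffolds Mier1 was at 0.16 and Dnttip1 at -0.24. Of the nuclear receptors and repressors that recruit NCoR, Pparg was at 0.48 with 1.80 and 1.28 CPM, and Rarb at -0.54. Of the histone acetyltransferases, which oppose the deacetylases, Kat5 (TIP60) was at 0.33 (SE 0.088, edgeR adjusted p = 0.104) and Kat6b at -0.11.

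With the inhibitor no gene of the 7 lists was called, 28 were higher and 37 lower (39 and 26 in the amygdala-labelled pair alone, which leaves out NaCl replicate 1), and the libraries of 10.8% lay apart against 26.6% of all genes. Without NaCl replicate 1, in a fit that mixed treatment with tissue, 25 of the 65 changed sign. In the receptor list Pparg was at -1.11 and Thrb, a thyroid hormone receptor that recruits NCoR, at 0.66, both with overlapping libraries, and without that library they were at -0.28 and -0.025. In the NuRD list Mta3 was at 0.37 and Mta2 at -0.28, and in the list of partners Coro2a was at 0.47, against 0.17, -0.14 and -0.11 without that library. Ing2 (0.32) and Sin3a (-0.23) bounded the Sin3 list, Rcor2 (0.25) and Kdm1a (-0.082) the CoREST list, Mier1 (0.15) and Dnttip1 (-0.20) the MIER and MiDAC list, and Kat2a (0.081) and Kat6b (-0.68) the acetyltransferases. Without that library Ing2 (-0.13), Sin3a (0.049), Kdm1a (0.11) and Kat6b (0.12) had the opposite sign. Rcor2 was then at 0.47, Mier1 at 0.40, Dnttip1 at -0.15 and Kat2a at 0.091. The values and signs without that library also carry the difference between the labelled tissues.

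Between the labelled tissues 20 of the 65 were higher and 45 lower in the amygdala-labelled libraries, none was called (28 higher and 37 lower by CPM without NaCl replicate 1), and the libraries of 52.3% lay apart against 44% of all genes. All 9 acetyltransferases were lower, with a median of -0.35 against -0.029 over all genes and values from -0.77 for Kat6b to -0.021 for Kat2a, but by CPM without NaCl replicate 1 only 6 of the 9 were lower. Among the NCoR partners Coro2a was at 0.77. The retinoic acid receptor gene Rarb, which is also in the striatum list, was at 1.82 with 9.54 and 2.69 CPM. In the NuRD list Cdk2ap1 was at 0.23 and Chd3 at -0.53, in the Sin3 list Sap30 at 0.61 and Sin3b at -0.42, in the CoREST list Hmg20b at 0.20 and Rcor2 at -0.68, and in the MIER and MiDAC list Elmsan1 at 0.16 and Mier1 at -0.28. Pparg had the lowest value among the receptors (-0.64).

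Without NaCl replicate 1, 17 of the 65 changed sign between the labelled tissues and 5 (7.69%, against 13.5% of all genes) were called by edgeR. Rarb was higher in the amygdala-labelled libraries (2.28, adjusted p = 7.21e-06). The other 4 were lower, namely Rcor2 (-0.86, adjusted p = 0.0034), Chd3 (-0.52, adjusted p = 0.0017), the acetyltransferase gene Crebbp (-0.54, adjusted p = 0.0445) and the thyroid hormone receptor gene Thra (-0.41, adjusted p = 0.0188). Of the other genes named for this comparison, Pparg turned to 0.78, Coro2a was at 0.27 and Kat6b at -0.036, while Sap30 (0.51), Sin3b (-0.40), Cdk2ap1 (0.28), Hmg20b (0.20), Elmsan1 (0.17), Mier1 (-0.26) and Kat2a (-0.043) kept their direction. Crebbp and Thra were named after their values were seen. In this fit the cortex-labelled side was the inhibitor library alone, so tissue was mixed with treatment.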

How the data were processed

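RNA-seq of 8 mouse brain libraries was examined as deposited. Per the submitters' processing notes, the authors aligned reads to GRCm38 with STAR 2.4.0 and counted them per gene with HTSeq 0.6.1, and the deposited counts are not normalized. The authors also deposited FPKM values, calculated from those counts and a gene length in bases, which served here only for shares of the class I sum. The strand setting of the counting is not given in the sources used here. The authors' group means, log2 fold changes, p-values and adjusted p-values were not used, nor were 8 per-library columns of normalized signal.

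Counts were analysed with R 4.3.3, edgeR 4.0.16 (TMM scaling, filterByExpr, quasi-likelihood test, Benjamini-Hochberg adjustment over the 17581 genes tested with stroke and 17565 in the other comparisons), DESeq2 1.42.0 and limma 3.58.1, and Python 3.11.15 (pandas 2.3.3, matplotlib 3.10.9). The scripts were tested on simulated data. A gene was called at an adjusted p under 0.05. Each standard error is the log2 fold change over the root of F, with 95% intervals from the t distribution. CPM are TMM-scaled within a table, log2 levels over all 8 libraries used a prior count of 2, and symbols joined the tables. The total counts of 15902013 to 21712033 per library limited precision less than the spread between the 2 libraries of a group, and an exact permutation test of 2 against 2 cannot go below 0.333.

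Groups came from the sample labels. In the second table the replicate number is also the labelled tissue, and same-numbered libraries deviated together (correlation across genes 0.299, against 0.035 in the first table). Alternatives were DESeq2, limma-voom, RLE scaling, no filter, 1 fit over all 8 libraries, a replicate block or treatment term, and leaving out each library. The members and lists were chosen with earlier results of these data known. All 8 members are named, and of the 7 other lists the called genes or else the highest and lowest, except 1 gene that is not reported here.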

Additional observations from a re-analysis of the deposited data

Results flagged for a closer look

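For 4 genes the HDAC3 inhibitor library lay above the NaCl library in one labelled tissue and below it in the other, with 1 library of each kind in each tissue. The log2 ratio was 0.17 in cortex and -0.059 in amygdala for Hdac3, 0.15 and -0.28 for Hdac8, -0.05 and 0.20 for Ncor1, and -0.74 and 0.037 for Tbl1x. The difference between the tissues was tested as an interaction in the edgeR fit over all 8 libraries, a test chosen after seeing the data, in which 6.53% of 18426 genes were called. It called none of the 4, with adjusted p = 0.496 for Hdac3, 0.471 for Hdac8, 0.389 for Ncor1 and 0.0970 for Tbl1x (edgeR). For Tbl1x the difference, cortex minus amygdala, was -0.78 (SE 0.230, 95% interval -1.32 to -0.23). The cortex ratios rest on NaCl replicate 1, whose olfactory bulb markers summed to 1403 CPM, and the part of that library in them was not tested.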

How the results depend on the processing

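Of 240 repeats of the 24 log2 fold changes of the members, 204 kept direction and side of the threshold, 10 gained a call, none lost one because none was called, and 26 changed sign. Outside the repeats that leave out a library, the sign changes were of values within 0.02 of 0, and the cause was not tested. For PTS + RS against RS, Ncor1 went to -4.363e-05 with RLE size factors, -0.0029 without a filter and -0.018 in 1 fit over all 8 libraries. For amygdala-labelled against cortex-labelled libraries, Hdac2 went to 0.0037 with DESeq2, 0.0035 with RLE, 0.0026 without a filter and 0.014 in the fit over all 8, and Hdac8 to 0.0025 in that fit. The fit over all 8 libraries, which takes its spread from the PTS + RS and RS pairs, also gave the calls of Tbl1xr1 (0.41) and Gps2 (-0.51) with the inhibitor and of Hdac1 (-0.71) and Tbl1xr1 (-0.37) between tissues.

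Leaving out each library in turn gave, for PTS + RS against RS, Hdac1 -0.037 to 0.28, Hdac2 0.051 to 0.28, Hdac3 -0.046 to 0.13, Ncor1 -0.043 to 0.050, Tbl1x 0.010 to 0.35 and Tbl1xr1 -0.11 to 0.014. For HDAC3 inhibitor against NaCl it gave Hdac1 -0.44 to 0.37, Hdac3 -0.075 to 0.19, Hdac8 -0.18 to 0.047, Ncor1 -0.023 to 0.17, Tbl1x -0.62 to -0.092, Tbl1xr1 0.17 (without NaCl replicate 2) to 0.67 and Gps2 -0.78 to -0.23. Between tissues it gave Hdac1 -0.73 to -0.71, Hdac2 -0.10 to 0.11, Hdac8 -0.14 to 0.13 and Ncor1 -0.032 to 0.18. It also gave Tbl1x -0.23 to 0.52, Tbl1xr1 -0.67 to -0.10 and Gps2 -0.68 to 0.12. The lowest Gps2 value, which was called, came without HDAC3 inhibitor replicate 1. The cortex-labelled side was then NaCl replicate 1 alone, the library with the highest Gps2 level. A group left with 1 library was assumed to vary like the other. In the second table every such fit also mixed treatment with tissue.

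Genes called higher and lower with stroke numbered 521 and 103, 575 and 166 with DESeq2, 1119 and 716 without a filter, and 202 to 1506 and 13 to 1360 with a library left out (202 without RS replicate 1, 1506 without PTS + RS replicate 2). With the inhibitor they were 0 and 0, 0 and 1 with DESeq2, 721 and 570 in the fit over all 8, and 0 and 0 to 8 with a library left out. Between tissues they were 0 and 0, 291 and 104 with DESeq2, 13 and 0 without a filter, 1706 and 1092 in the fit over all 8, and 0 to 2662 and 0 to 2315 with a library left out. With the replicate number as a block, 687 genes were higher and 228 lower with stroke, where the libraries share only a number, and the block, or a treatment term between tissues, changed no call of a member. With 2 libraries a group, differences of the size seen here could mostly not be told from the spread.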
